A study of Mus musculus with 28 samples.

Results

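The genes described here are 30 components of the dystrophin complex, the laminins, the integrins and the costamere, found by symbol and Ensembl identifier among the 55359 genes that both count tables hold. They comprise dystrophin and its homologue utrophin (*Dmd*, *Utrn*), 6 glycoproteins of the membrane (*Dag1*, *Sgca*, *Sgcb*, *Sgcd*, *Sgce*, *Sspn*), 5 cytoplasmic partners (*Sntb1*, *Sntb2*, *Dtna*, *Dtnb*, *Nos1*), 6 laminin chains (*Lama2*, *Lama4*, *Lama5*, *Lamb1*, *Lamb2*, *Lamc1*), 3 integrin chains (*Itga5*, *Itga7*, *Itgb1*) and 8 adaptors of adhesion sites (*Vcl*, *Tln1*, *Tln2*, *Ilk*, *Parva*, *Pxn*, *Fermt2*, *Plec*). All 30 passed the filter on low counts in both cohorts, and the lowest count of any of them in any mouse was 20 reads.

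A muscle fiber is held to its basement membrane by a pair of receptor systems. In the first, laminin binds dystroglycan (*Dag1*), which is stabilized by the sarcoglycans and sarcospan and joined through dystrophin to actin, with the syntrophins, the dystrobrevins and neuronal nitric oxide synthase docked on the inner face. In the second, laminin binds integrins, whose tails recruit talin, kindlin, integrin-linked kinase, parvin, paxillin and vinculin. Both are concentrated at costameres, rib-like sites that couple the Z-discs of the outer myofibrils to the membrane, and loss of several of their components causes muscular dystrophy.

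Polyadenylated RNA of tibialis anterior (TA) muscle was sequenced from 28 mice in 7 groups of 4. The *Dnm2* cohort holds wild-type (WT) mice on placebo, WT mice on tamoxifen, and Dnm2 S619L/+ mice on placebo or on tamoxifen. These mutants are heterozygous for a point mutation in dynamin 2, a GTPase that cuts membranes. The *Bin1* cohort holds WT mice on placebo and Bin1 mck-/- mice on placebo or on tamoxifen, with no WT group on tamoxifen. *Bin1* encodes amphiphysin 2, which curves membranes, and mck stands for the muscle creatine kinase promoter, which directs the deletion to skeletal muscle while other cells of the tissue keep the gene. Both are models of centronuclear myopathy, studied at 8 weeks of age on the C57BL/6N background. Treated mice received tamoxifen, a ligand of the estrogen receptor, in their food. RNA input and fragmentation time differed between the cohorts, so model and library protocol change together, and each contrast was made within a cohort.

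Between 15586333 and 109710886 reads on genes were counted for each WT placebo mouse of the *Dnm2* cohort, 20989876 to 46556589 in WT tamoxifen, 21520228 to 41940004 in Dnm2 S619L/+ placebo and 21588926 to 33651769 in Dnm2 S619L/+ tamoxifen mice. In the *Bin1* cohort the ranges were 30776801 to 35136327 in WT, 29063032 to 33654116 in Bin1 mck-/- placebo and 24671835 to 30538990 in Bin1 mck-/- tamoxifen mice. Levels are given as CPM, the reads of a gene scaled to the size of its library, with library sizes corrected by edgeR's TMM method, and changes as log2 fold changes (log2FC) with their standard errors (SE) from edgeR. Nothing in the labels says more of the 4 mice of a group than that they are separate samples.

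The labels were checked first. *Bin1* had 539.9 ± 15.7 CPM (SD, n = 4) in WT mice of its cohort and 56.2 ± 5.10 in Bin1 mck-/- placebo mice. The point mutation of *Dnm2* does not show in counts per gene, and *Dnm2* had 63.1 ± 1.45 CPM in WT placebo and 67.6 ± 4.64 in Dnm2 S619L/+ placebo mice (adjusted p = 0.344 by edgeR). All 8 markers of skeletal muscle were detected in every group, with summed group means of 103700 to 151700 CPM. The labels give no sex. *Xist*, which female cells transcribe from the inactive X chromosome, was above 10 CPM in 2 of 4 mice of each of WT placebo, WT tamoxifen and Dnm2 S619L/+ placebo in the *Dnm2* cohort, and in 4 of 4 Dnm2 S619L/+ tamoxifen mice. The lowest of these 10 mice had 125 CPM and the highest of the other 6 had 0.966. All 12 mice of the *Bin1* cohort had at least 70.8 CPM.

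Some mice stood apart from their groups in markers of connective tissue. Dnm2 S619L/+ tamoxifen mouse 4 had a summed level of 7 fibroblast markers of 2057 CPM, against 6729 to 13740 in the other 3 mice, and of 8 bone markers of 65.9 CPM, against 665 to 1625. In the *Bin1* cohort, Bin1 mck-/- tamoxifen mouse 2 had 5841 CPM of fibroblast markers against 272 to 1700 in the others of its group. Bin1 mck-/- placebo mouse 4 had 1046 CPM of tendon markers against 103 to 257 in its group, and 43.0 CPM of cartilage markers against 5.89 to 8.69. WT placebo mouse 4 of the *Dnm2* cohort had 242 CPM of tendon markers against 47.4 to 69.9. For contrasts that include these mice, counts of calls are also given without them.

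Per kilobase of exon, the 30 genes spanned a wide range of levels in placebo WT mice. *Sgca*, which encodes α-sarcoglycan, was highest in both cohorts, with 117 ± 11.3 CPM per kb in the *Dnm2* cohort and 154 ± 6.27 in the *Bin1* cohort. In the *Dnm2* cohort it was followed by *Fermt2* (kindlin 2) with 80.7 ± 3.93, *Itgb1* (integrin β1) with 69.5 ± 5.85 and *Dag1* with 53.4 ± 5.83 CPM per kb. *Dmd* ranked 18 with 7.98 ± 1.18 and *Utrn* 26 with 2.79 ± 0.270 CPM per kb. *Dtnb* (β-dystrobrevin) was lowest in both cohorts, at 0.219 ± 0.0522 and 0.194 ± 0.0265 CPM per kb. Of the 29 pairs of neighbours in this order, 7 had ranges over the 4 mice that did not overlap and 22 overlapped, in each of the cohorts. The muscle sarcoglycan α stood far above ε (4.61 ± 0.449 CPM per kb), and the β2 laminin chain (40.7 ± 8.19 CPM per kb) above β1 (7.56 ± 1.35). The median coefficient of variation of the 30 genes between mice of a group ranged from 10.8% in WT placebo of the *Dnm2* cohort to 17.8% in Bin1 mck-/- tamoxifen mice.

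**Figure D1:**
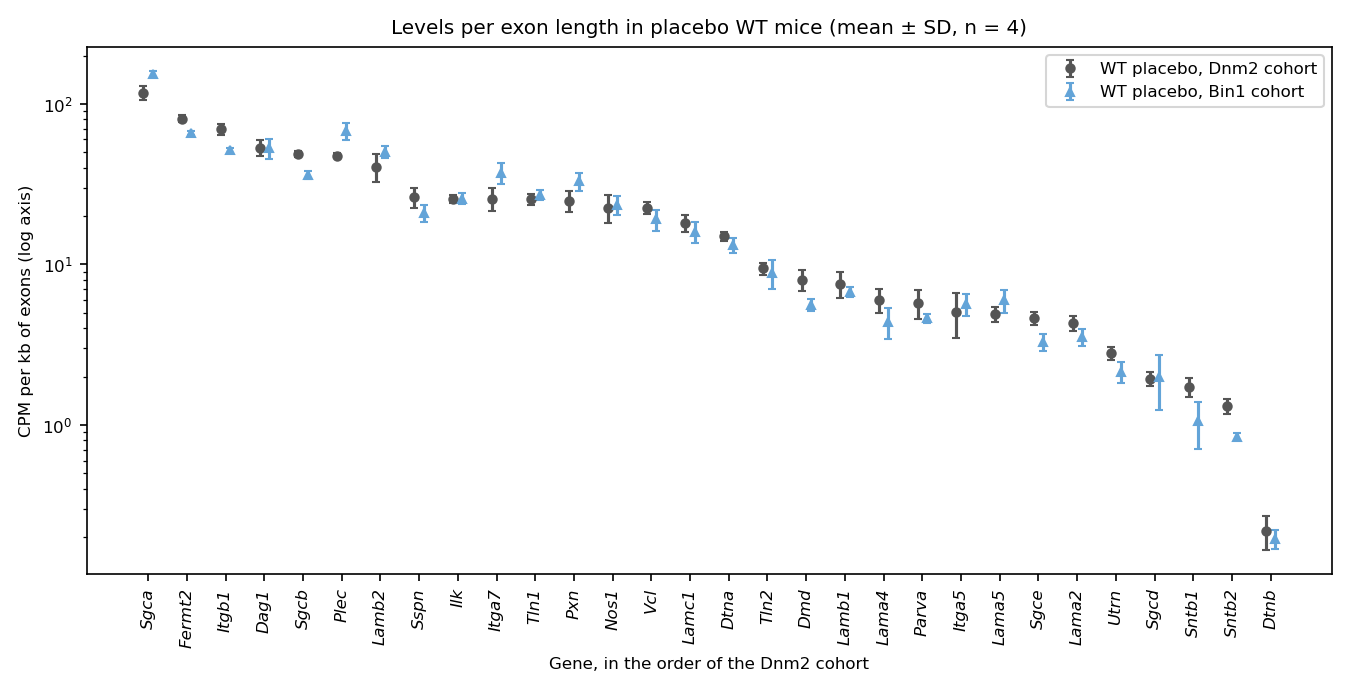
Level per kilobase of exon (CPM per kb, log axis) of the 30 genes in placebo WT mice of the Dnm2 cohort (circles) and the Bin1 cohort (triangles), as mean ± SD of 4 mice, in the order of the Dnm2 cohort. *Sgca* was highest at 117 and 154 CPM per kb and *Dtnb* lowest at 0.219 and 0.194.

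The products of *Itga5* and *Itgb1* pair as a fibronectin receptor, and those of *Sgcd* and *Sgcb* are the δ and β subunits of the same sarcoglycan complex. The 250 bases before the start of each gene are shown, since *Itga5* and *Itgb1* were both called in Dnm2 S619L/+ mice and on tamoxifen in WT mice, and *Sgcd* and *Sgcb* both on tamoxifen in Dnm2 S619L/+ mice. In every other contrast at most 1 gene of a pair was called. They are RefSeq sequences of build GRCm38.p6, written 5′ to 3′ on the strand of the gene, from chr8:128685404-128685653 (+) for *Itgb1*, chr15:103366792-103367041 (−) for *Itga5*, chr11:47379326-47379575 (−) for *Sgcd* and chr5:73647738-73647987 (−) for *Sgcb*. Capitals mark the GC box GGGCGG on either strand.
Itgb1: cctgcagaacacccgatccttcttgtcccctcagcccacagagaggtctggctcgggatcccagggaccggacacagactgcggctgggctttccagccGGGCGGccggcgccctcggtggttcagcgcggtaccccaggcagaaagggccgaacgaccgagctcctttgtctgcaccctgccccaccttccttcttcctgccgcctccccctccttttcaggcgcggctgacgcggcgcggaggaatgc
Itga5: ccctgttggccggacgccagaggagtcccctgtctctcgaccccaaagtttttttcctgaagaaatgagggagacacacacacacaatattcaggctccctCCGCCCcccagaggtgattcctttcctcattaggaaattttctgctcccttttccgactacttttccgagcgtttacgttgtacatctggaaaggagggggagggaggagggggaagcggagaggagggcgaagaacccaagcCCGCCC
Sgcd: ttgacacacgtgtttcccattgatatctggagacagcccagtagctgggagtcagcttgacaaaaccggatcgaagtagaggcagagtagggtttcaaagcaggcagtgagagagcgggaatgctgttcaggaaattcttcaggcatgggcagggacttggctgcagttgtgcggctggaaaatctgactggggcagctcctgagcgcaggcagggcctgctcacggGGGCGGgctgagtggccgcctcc
Sgcb: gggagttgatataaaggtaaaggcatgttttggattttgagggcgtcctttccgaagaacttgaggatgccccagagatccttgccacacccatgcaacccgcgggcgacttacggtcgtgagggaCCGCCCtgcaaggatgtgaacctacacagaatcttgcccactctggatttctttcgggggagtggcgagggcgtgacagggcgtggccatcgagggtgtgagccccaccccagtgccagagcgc
*Itgb1* holds 1 GC box, 151 bases before the start, *Itga5* 2, at 149 and 6 bases, *Sgcd* 1 at 23 bases and *Sgcb* 1 at 124 bases. A GC box is present in 32.7% of the 32851 windows of this length in the table. The E-box CANNTG, read on both strands and held by 66.2% of windows, occurs in *Itga5* at 66 bases and in *Sgcd* at 244 and 86 bases, and in neither of the others. A consensus estrogen response element occurs in 0.0639% of windows and in none of these 4. Such matches are a description of the letters in these windows, and 19 of the 30 genes had an entry in the table.

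The first comparison asked how the attachment genes differ between Dnm2 S619L/+ and WT mice on placebo. In Dnm2 S619L/+ muscle the 3 integrin chains and *Sgcd* were higher than in WT, whereas the laminin chains *Lama4* and *Lama5*, the synthase gene *Nos1*, the syntrophin gene *Sntb1* and the talin gene *Tln2* were lower. *Dmd*, *Utrn* and *Dag1* did not pass the test. In all, 9 of 30 genes passed (edgeR quasi-likelihood test, Benjamini-Hochberg adjusted p under 0.05), 4 of them higher and 5 lower. Of all 15439 genes tested 21.9% passed, 12.1% higher and 9.81% lower. The median log2FC was -0.02 over the 30 genes and 0.02 over all genes. This split depends on scaling. With plain library sizes, which moved the median of all genes to 0.285, 14 of the 30 genes passed, 13 higher and 1 lower, and *Lama4*, *Lama5*, *Tln2* and *Sntb1* no longer did. Calls over all genes went from 3382 to 5275 in that setting, 91.1% of them higher. In the 4 mice of these groups with *Xist* above 10 CPM, in a fit of such mice only, 4 of the 30 passed (*Sgcd*, *Sntb1*, *Lama4* and *Lama5*). Without WT placebo mouse 4, 7 of the 30 passed, and *Sntb1* and *Lama4* did not.

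All 3 integrin chains rose in Dnm2 S619L/+ mice. *Itgb1* (ENSMUSG00000025809), the β chain shared by both α chains measured here, had 247, 278, 245 and 290.1 CPM in the 4 WT mice and 379, 453, 305 and 374 in the 4 mutants. The groups did not overlap, and the log2FC was 0.51 (SE 0.12, adjusted p = 0.0089 by edgeR). *Itga7* (ENSMUSG00000025348), the α chain of the main laminin receptor of muscle fibers, had 109.5, 101, 86.3 and 128 CPM in WT and 154, 186, 127 and 151 in mutant mice. The highest WT mouse thus lay just above the lowest mutant, with a log2FC of 0.54 (SE 0.15, adjusted p = 0.0187 by edgeR). *Itga5* (ENSMUSG00000000555), the α chain of the fibronectin receptor, had 27.1, 19.2, 13.7 and 28.6 CPM in WT and 40.8, 35.7, 29.9 and 34.2 in mutants. Again every mutant lay above every WT mouse, by a log2FC of 0.66 (SE 0.18, adjusted p = 0.0196 by edgeR), but in the fit of these groups alone it was not called. None of the 3 passed in the fit of mice with *Xist* above 10 CPM, and leaving out 1 mouse ended the call of *Itga7* in 3 of 16 fits and that of *Itga5* in 2. Other markers were higher in the same mutants. Tendon markers summed to 103 ± 93.0 CPM in WT and 342 ± 103 in mutants, with 3 of 5 higher and *Thbs4* the most abundant (59.1 and 233 CPM). Those of macrophages and leukocytes summed to 52.5 ± 12.3 and 96.3 ± 49.8 CPM, with 2 of 8 higher, and those of fibroblasts to 1154 ± 156 and 1998 ± 349 CPM, with 1 of 7 higher. Their part in the values of the integrins and of *Sgcd* was not tested.

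Among the glycoproteins of the membrane 1 of 6 passed. *Sgcd* (ENSMUSG00000020354), which encodes δ-sarcoglycan, had 6.57, 6.42, 7.75 and 6.37 CPM in WT and 9.67, 13.6, 9.51 and 13.0 in mutant mice. There was no overlap, and with a log2FC of 0.75 (SE 0.14, adjusted p = 0.0018 by edgeR) it had the smallest p of the 30 genes and passed under all 25 alternatives. The other sarcoglycans did not move with it. *Sgca* and *Sgcb* had log2FCs of 0.00 (SE 0.16) and 0.01 (SE 0.09), and *Dag1* (ENSMUSG00000039952), the laminin receptor of the complex, had 369, 295, 313 and 296 CPM in WT and 353, 234, 267 and 299 in mutants. These ranges overlap widely.

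Of dystrophin and utrophin, neither passed. *Dmd* (ENSMUSG00000045103) had 115, 126, 97.4 and 139 CPM in WT and 165, 126, 120.3 and 166 in mutants (log2FC 0.27, SE 0.15, adjusted p = 0.213 by edgeR). The groups overlap between 120.3 and 139 CPM. *Utrn* (ENSMUSG00000019820), the homologue that can stand in for dystrophin, had 38.8, 38.7, 36.4 and 45.3 CPM in WT and 40.4, 37.6, 35.2 and 41.8 in mutants, with almost the same range in both.

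Cytoplasmic partners were lower where they passed. *Nos1* (ENSMUSG00000029361), which makes the nitric oxide that dilates the vessels of working muscle, had 188, 246, 201 and 288 CPM in WT and 158, 79.4, 145 and 122 in mutant mice. The highest mutant lay below the lowest WT mouse, with a log2FC of -0.87 (SE 0.20, adjusted p = 0.00765 by edgeR). *Sntb1* (β1-syntrophin) had a log2FC of -0.87 as well (SE 0.28, adjusted p = 0.0356 by edgeR), from 9.01 ± 1.23 to 4.93 ± 1.76 CPM, with overlap at 7.22 to 7.24 CPM. Leaving out any of 6 mice ended this call.

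Of the laminins, 2 of 6 chains fell and none rose. *Lama5* (ENSMUSG00000015647) had 62.6, 54.6, 48.5 and 58.3 CPM in WT and 44.3, 29.5, 44.3 and 34.2 in mutant mice, a log2FC of -0.56 (SE 0.13, adjusted p = 0.00737 by edgeR). *Lama4* (ENSMUSG00000019846) went from 36.4 ± 6.22 to 21.4 ± 6.54 CPM, a log2FC of -0.77 (SE 0.23, adjusted p = 0.0273 by edgeR). Neither overlapped between the groups, but the call of *Lama4* ended with no filter on low counts and in 4 of 16 fits without 1 mouse. Both chains are known from the basement membranes of blood vessels, and markers of vessels moved the same way. The summed level of 8 endothelial markers was 621 ± 193 CPM in WT and 332 ± 167 in mutants, with 4 of 8 markers lower, and that of 8 markers of smooth muscle and pericytes 1183 ± 98.6 and 602 ± 154 CPM, with 4 of 8 lower and 1 higher. *Cdh5* was the most abundant of the first list (184 and 87.3 CPM) and *Rgs5* of the second (763 and 349 CPM), and no marker of either list was at 0. Their part in the laminin values was not tested, and in bulk tissue fewer cells of a type and less RNA per cell cannot be told apart. *Lama2* (ENSMUSG00000019899), the α2 chain that the basement membrane of muscle fibers depends on, had 43.9, 43.2, 45.9 and 36.0 CPM in WT and 53.8, 64.6, 38.5 and 39.5 in mutants and did not pass (log2FC 0.22, SE 0.14).

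Among the adaptors, only *Tln2* passed of 8. *Tln2* (ENSMUSG00000052698), a talin enriched in mature muscle, had 124, 127, 118 and 103 CPM in WT and 93.6, 83.3, 82.0 and 75.4 in mutant mice. The groups were separate, with a log2FC of -0.50 (SE 0.13, adjusted p = 0.0132 by edgeR), whereas *Tln1* had -0.06 (SE 0.10). *Vcl* (ENSMUSG00000021823), which links talin to actin, had 115, 133, 113 and 109.9 CPM in WT and 141, 116, 118 and 150.2 in mutants, with overlap. Skeletal muscle markers summed to 141900 ± 11720 CPM in WT and 117700 ± 16330 in mutants, with 2 of 8 lower. Satellite cell markers summed to 43.4 ± 6.68 CPM in WT and 56.9 ± 16.6 in mutants, with 2 of 6 called lower and none higher. Of these 6 markers 3 had a positive log2FC, and the median was 0.17. The part of both lists in the values of *Nos1* and *Tln2* was not tested.

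**Figure D2:**
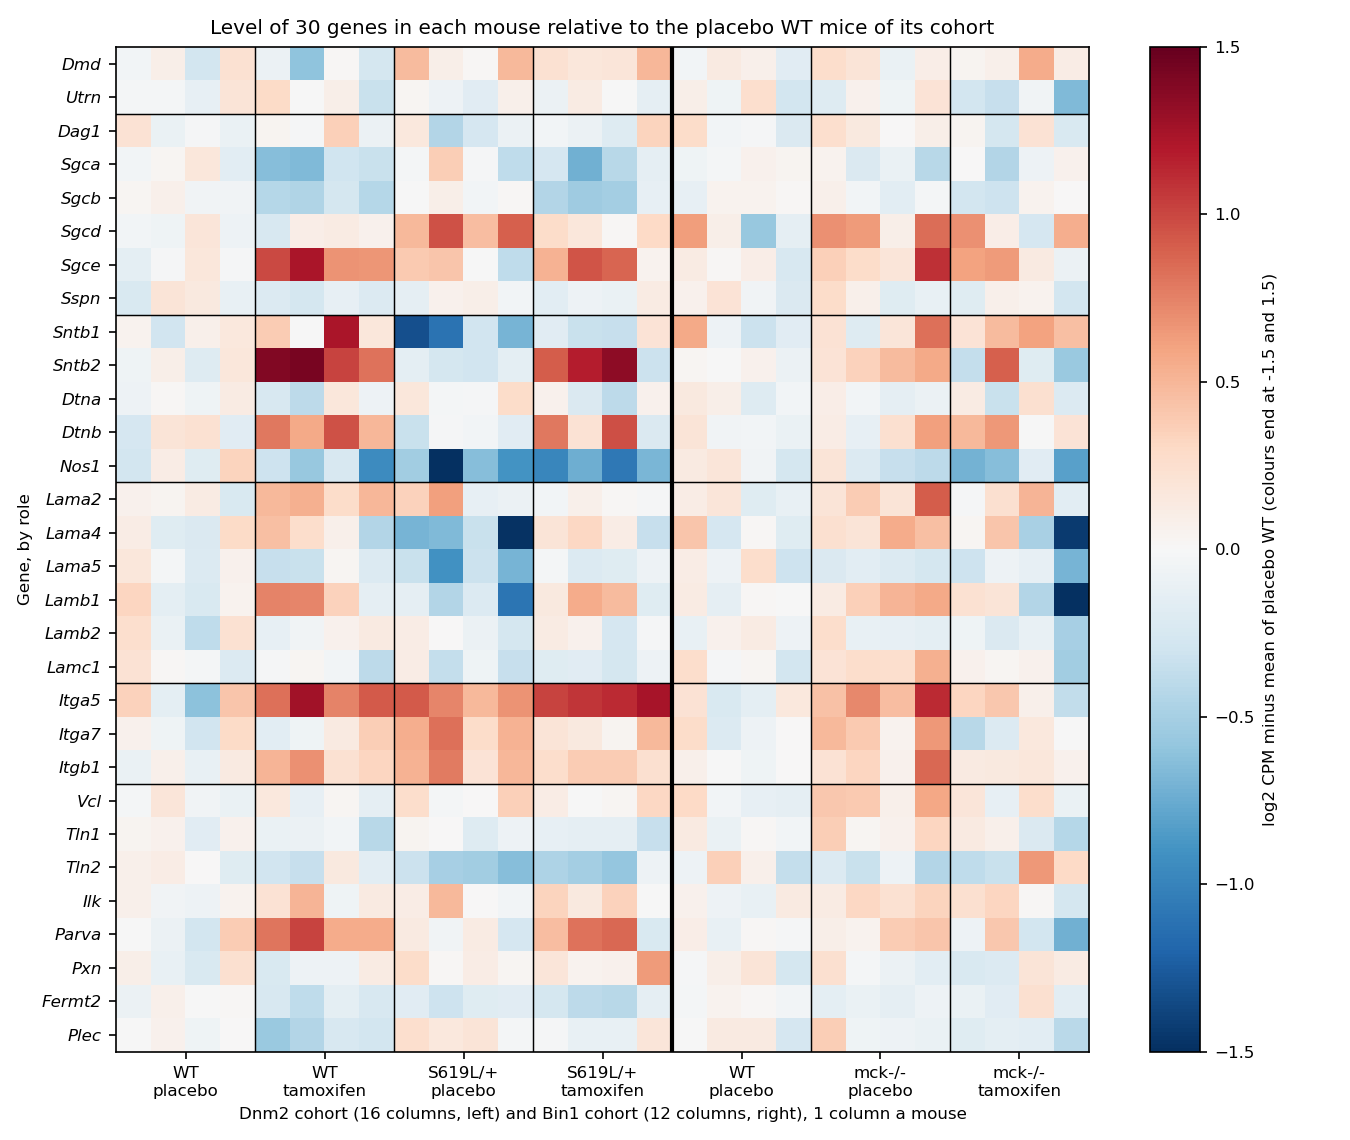
Log2 CPM of the 30 genes, by role from top to bottom, in each of the 28 mice (1 column a mouse) minus the mean of the placebo WT mice of the same cohort, with colours ending at -1.5 and 1.5. In Dnm2 S619L/+ placebo mice the rows of *Itgb1*, *Itga5* and *Sgcd* are red in all 4 columns and those of *Nos1*, *Lama4* and *Tln2* blue, and *Sntb2* is red in all WT tamoxifen columns.

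Other genes of the same pathways were counted from lists that hold none of the 30. In Dnm2 S619L/+ placebo mice 1 of 5 tested genes of other dystrophin complex members rose and 1 fell, 3 and 1 of 16 genes that glycosylate dystroglycan, 2 and 3 of 15 other basement membrane genes, 3 and 3 of 17 other integrins and 5 and 7 of 32 other adhesion and costamere genes. *Cav3*, the caveolin of muscle, rose from 51.0 ± 1.63 to 103 ± 23.5 CPM (log2FC 1.01, SE 0.16, adjusted p = 0.000626 by edgeR). *Drp2*, a dystrophin-related gene of Schwann cells that also stands on the list of nerve markers, fell from 13.2 ± 2.90 to 6.74 ± 2.67 CPM. Of the glycosylation genes, *Dpm3* and *Dpm2*, subunits of the enzyme that makes dolichol phosphate mannose, had log2FCs of 0.98 (SE 0.23) and 0.55 (SE 0.14). Type IV collagen genes moved apart, with *Col4a5* at 1.28 (SE 0.24), *Col4a3* at -1.42 (SE 0.36) and *Col4a4* at -1.08 (SE 0.28). *Itgav*, the αv chain, rose from 23.9 ± 3.92 to 59.9 ± 13.3 CPM (log2FC 1.32, SE 0.18, adjusted p = 0.000178 by edgeR), *Itga2b* had 1.23 (SE 0.24) and *Itga1*, a collagen receptor chain, -0.97 (SE 0.19). Among the adhesion and costamere genes called, the keratins *Krt18* and *Krt8*, intermediate filament genes of the costamere, had the largest changes. *Krt18* went from 0.191 ± 0.137 to 23.1 ± 18.6 CPM (log2FC 6.78, SE 0.62, adjusted p = 7.79e-06 by edgeR), and *Krt8* had 0 reads in the 4 WT mice and 343 in the 4 mutants, at least 207-fold higher against a floor of 3 reads over the WT group. *Des*, which encodes desmin, rose from 2777 ± 131 to 5384 ± 1557 CPM (log2FC 0.96, SE 0.20). In the fit of mice with *Xist* above 10 CPM, *Drp2*, *Dpm3*, *Dpm2*, *Col4a3*, *Col4a4*, *Itga2b* and *Des* were not called. At their weakest over 25 alternatives *Col4a3* and *Col4a4* had log2FCs of -0.59 and -0.50.

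In WT mice, tamoxifen was compared with placebo. On tamoxifen the integrin chains *Itga5* and *Itgb1*, the partners *Sntb2* and *Dtnb*, *Sgce*, *Lama2* and *Parva* were higher, and the sarcoglycans *Sgca* and *Sgcb*, *Plec* and *Fermt2* were lower. Thus 11 of 30 genes passed, 7 higher and 4 lower, against 27.7% of all genes, 15.8% higher and 11.9% lower. The median log2FC was 0.00 over the 30 genes and -0.04 over all genes. With plain library sizes, which moved the median of all genes to 0.238, 10 passed, all of them higher, so that the 4 falls were not called, and *Fermt2* changed sign to 0.03 (adjusted p = 0.801 by edgeR). Over all genes that setting gave 4789 calls in place of 4273, 92% of them higher. Of the 11, 4 passed when only mice with *Xist* above 10 CPM were fitted. Without WT tamoxifen mouse 2, 6 passed, with 2769 calls over all genes in place of 4273, and without WT placebo mouse 4, 8 passed.

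Partners and glycoproteins gave the smallest p after *Itga5*. *Sntb2* (ENSMUSG00000041308), which encodes β2-syntrophin, had 12.4, 13.8, 11.3 and 14.6 CPM on placebo and 34.8, 35.6, 26.6 and 23.3 on tamoxifen. Every treated mouse was above every placebo mouse, with a log2FC of 1.2 (SE 0.26, adjusted p = 0.00356 by edgeR), the largest of the 30 genes in this comparison. *Sgce* (ENSMUSG00000004631), the sarcoglycan ε found in many tissues, had 7.78, 8.52, 9.80 and 8.51 CPM on placebo and 17.7, 20.9, 14.03 and 13.9 on tamoxifen (log2FC 0.95, SE 0.21, adjusted p = 0.00446 by edgeR). *Sgcb* (ENSMUSG00000029156) went the other way, from 187, 194, 178 and 178 CPM to 136, 135, 154 and 137, with a log2FC of -0.39 (SE 0.09, adjusted p = 0.00623 by edgeR). Its groups were as clearly separate as those of *Sgce*. *Sgca* had -0.48 (SE 0.16) and *Dtnb* 0.90 (SE 0.29).

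Integrins, laminins and adaptors were split. *Itga5* had 37.9, 51.5, 35.9 and 40.5 CPM on tamoxifen against the placebo values given above, a log2FC of 0.89 (SE 0.18, adjusted p = 0.00267 by edgeR) that passed under all 25 alternatives. *Itgb1* had 376, 425, 310.0 and 332 CPM on tamoxifen (log2FC 0.44, SE 0.12), while *Itga7* had 94.3, 101, 115 and 136 and stayed within the placebo range but for the highest mouse. *Lama2* had 59.4, 61.1, 50.9 and 59.9 CPM on tamoxifen, each above the highest placebo mouse (log2FC 0.45, SE 0.14). *Plec* (ENSMUSG00000022565), which encodes the cytolinker plectin, had 828, 871, 794 and 838 CPM on placebo and 566, 614, 704 and 690.2 on tamoxifen. No treated mouse reached the placebo range, with a log2FC of -0.37 (SE 0.10, adjusted p = 0.0141 by edgeR). *Parva* (α-parvin) had a log2FC of 0.73 (SE 0.21) and *Fermt2* -0.25 (SE 0.09). Leaving out 1 mouse ended the call of *Fermt2* in 7 of 16 fits, of *Sgca* in 5, and of *Lama2* and *Dtnb* in 4 each, and the replicate block ended those of *Fermt2* and *Sgca*.

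The core genes of the complex did not pass in this comparison. *Dmd* had 112, 77.7, 119.6 and 98.8 CPM on tamoxifen, *Utrn* 48.4, 39.7, 42.4 and 31.4 and *Dag1* 326, 314, 405 and 298. *Vcl* had 131, 108, 119.5 and 107 CPM. All 4 genes overlapped with placebo, and the largest of their log2FCs was that of *Dmd*, at -0.23 (SE 0.15).

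Markers of connective tissue and of leukocytes moved in the same mice. The summed level of 7 fibroblast markers was 1154 ± 156 CPM in WT placebo and 12720 ± 3682 in WT tamoxifen mice, with *Col3a1* the most abundant (497 and 5965 CPM) and 5 of 7 higher. That of 8 bone markers was 51.6 ± 21.0 and 1507 ± 609 CPM with 7 of 8 higher, led by *Alpl* on placebo (38.6 CPM) and by *Mmp13* on tamoxifen (874 CPM), and that of 5 tendon markers 103 ± 93.0 and 1150 ± 386 CPM with 5 of 5 higher. The 6 cartilage markers summed to 8.66 ± 4.28 and 79.3 ± 23.4 CPM, with 3 higher. Those of macrophages and leukocytes summed to 52.5 ± 12.3 and 145 ± 54.2 CPM with 5 of 8 higher, led by *Mrc1* on placebo (17.0 CPM) and *Csf1r* on tamoxifen (60.1 CPM). Skeletal muscle markers summed to 141900 ± 11720 and 103700 ± 6267 CPM, with 1 of 8 lower. Of the markers of smooth muscle and pericytes 1 of 8 was lower, and of those of satellite cells 1 of 6 higher. None of these lists had a gene at 0. Their part in the values of the 30 genes was not tested.

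**Figure D3:**
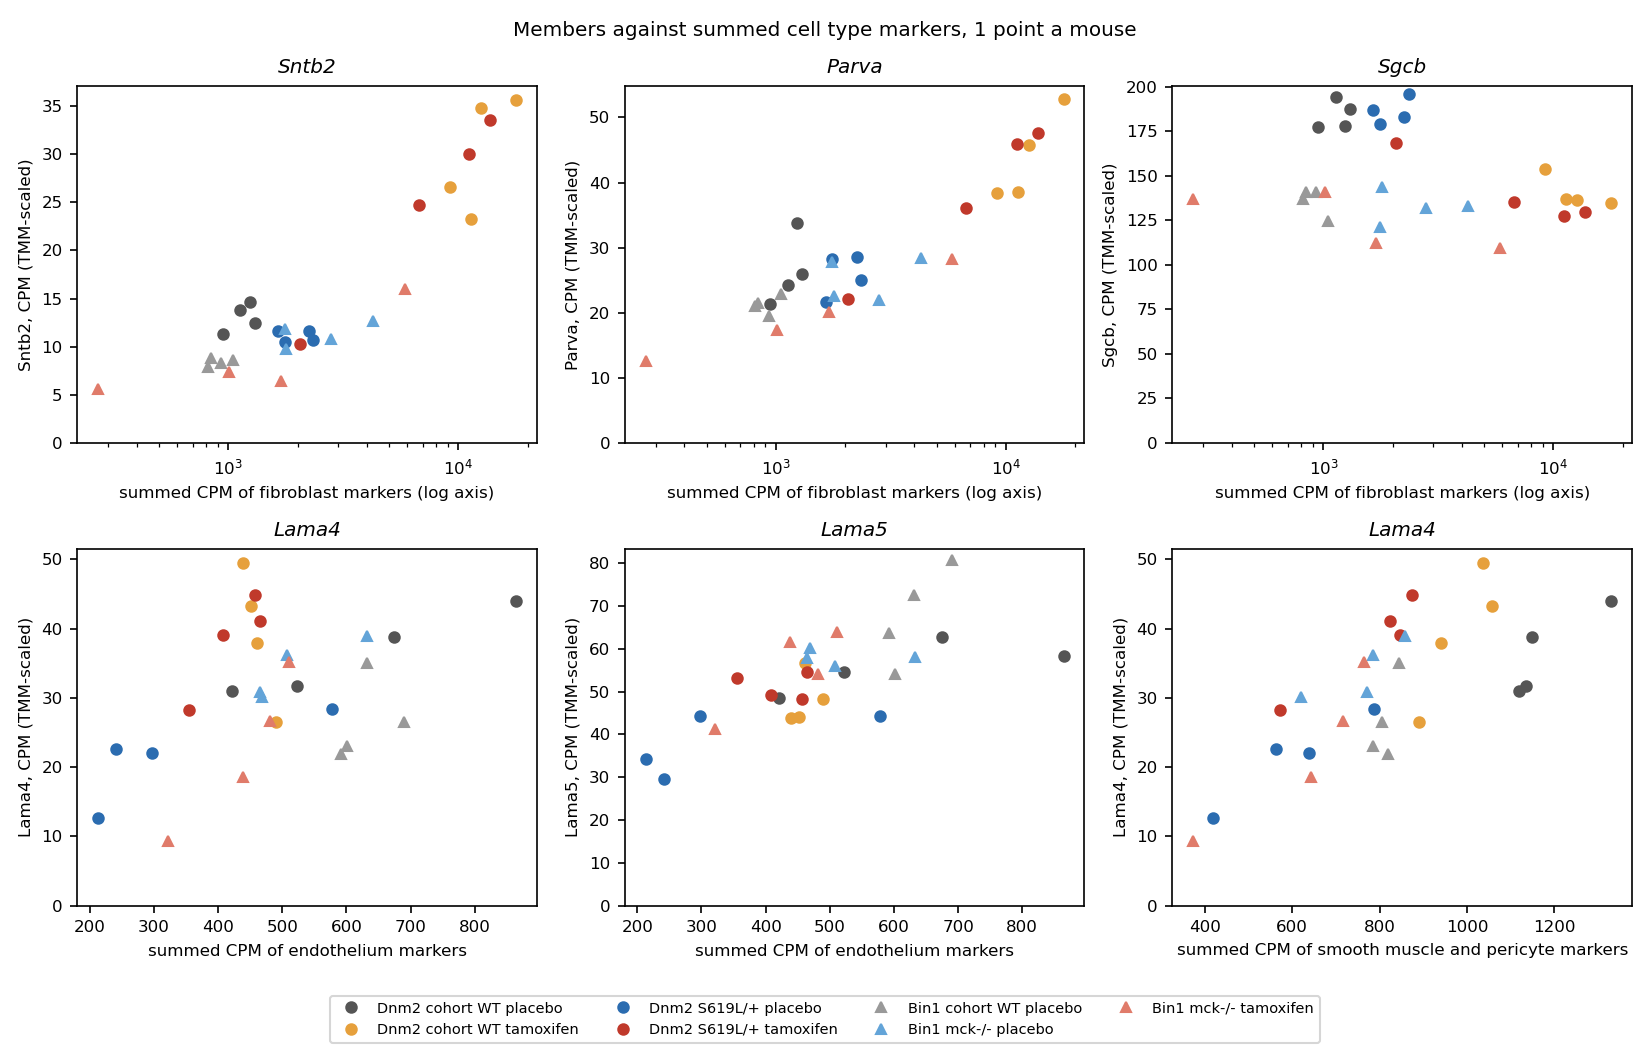
CPM of *Sntb2*, *Parva* and *Sgcb* against the summed CPM of fibroblast markers (log axis), and of *Lama4* and *Lama5* against those of endothelium or of smooth muscle and pericytes, with 1 point a mouse (circles, Dnm2 cohort, and triangles, Bin1 cohort). The 7 mice with 6729 CPM or more of fibroblast markers have 23.3 to 35.6 CPM of *Sntb2*, and Dnm2 S619L/+ tamoxifen mouse 4, with 2057, has 10.3.

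In the other lists, tamoxifen in WT mice gave 1 higher and 4 lower of 16 glycosylation genes, 2 and 2 of 15 basement membrane genes, 8 and 3 of 17 other integrins and 6 and 2 of 32 other adhesion and costamere genes. *Lama3*, a laminin chain of epithelia, had 1.30 (SE 0.35), *Col18a1* 1.09 (SE 0.30) and *Col4a3* -1.48 (SE 0.36). *Itga11*, a collagen receptor chain of fibroblasts, rose from 4.97 ± 2.41 to 79.1 ± 25.5 CPM (log2FC 3.92, SE 0.61, adjusted p = 0.000516 by edgeR), *Itgb3* from 2.07 ± 1.02 to 27.0 ± 17.5 and *Itga10* from 1.62 ± 0.970 to 12.3 ± 3.61 CPM. *Actn1*, the non-muscle α-actinin, had 1.73 (SE 0.35), *Tgfb1i1* (Hic-5, a paxillin relative) 0.81 (SE 0.21) and *Dst* -0.48 (SE 0.12). In the fit of mice with *Xist* above 10 CPM, *Lama3*, *Col18a1*, *Col4a3*, *Actn1*, *Tgfb1i1* and *Dst* were not called. *Itga11*, *Itgb3* and *Itga10* were called under all 25 alternatives, over which *Col4a3* had a log2FC of -0.47 at its weakest. *Dst* was also lost with plain library sizes, and *Col18a1* without WT tamoxifen mouse 2.

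In Dnm2 S619L/+ mice, tamoxifen was compared with placebo. *Sntb2* and *Lama4* were higher and *Sgcb* and *Sgcd* lower on tamoxifen, so that 4 of 30 genes passed, 2 in each direction, against 8.27% of all genes, 5.22% higher and 3.05% lower. The medians were 0.00 for the 30 genes and -0.03 for all genes. With plain library sizes 4 passed, 3 higher and 1 lower, with *Lama5* called and *Sgcd* not. Over all genes that setting gave 990 calls in place of 1277, 74.4% of them higher. The 4 genes named first had the same direction under all 25 alternatives. Their log2FCs were 0.96 to 1.40 for *Sntb2*, -0.51 to -0.34 for *Sgcb*, -0.63 to -0.46 for *Sgcd* and 0.66 to 1.16 for *Lama4*. All 4 calls were lost when *Xist* entered as a covariate, when only these groups were fitted and in the fit of mice with *Xist* above 10 CPM, with 0 calls each, and *Xist* was above 10 CPM in 2 of 4 placebo and 4 of 4 tamoxifen mice. Without tamoxifen mouse 4, whose connective tissue markers were low, 8 of the 30 passed, the 4 among them, while calls over all genes went from 1277 to 2562. Without tamoxifen mouse 2 or mouse 3 none of the 30 did, with 406 and 368 calls over all genes.

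*Sgcb* had 183, 196, 179 and 187 CPM on placebo and 135, 127, 129.8 and 169 on tamoxifen. The groups were separate, with mouse 4 closest to placebo, and the log2FC was -0.41 (SE 0.09, adjusted p = 0.0165 by edgeR). *Sntb2* had 11.6, 10.7, 10.5 and 11.7 CPM on placebo and 24.8, 30.0, 33.5 and 10.3 on tamoxifen. The other 3 treated mice were well above placebo and mouse 4 was below the lowest placebo mouse, with a log2FC of 1.14 (SE 0.26, adjusted p = 0.0167 by edgeR). *Sgcd*, higher in the mutants on placebo, had 8.25, 7.69, 6.82 and 8.40 CPM on tamoxifen. No treated mouse reached the lowest placebo value of 9.51 CPM, and the log2FC was -0.55 (SE 0.14, adjusted p = 0.0276 by edgeR), a call that ended with the replicate block. *Lama4* had 22.0, 22.7, 28.4 and 12.6 CPM on placebo and 41.2, 44.9, 39.1 and 28.3 on tamoxifen. Mouse 4 again fell among the placebo mice, and the log2FC was 0.84 (SE 0.23, adjusted p = 0.0373 by edgeR). Summed endothelial markers were 421 ± 51.0 CPM in the treated mutants and those of smooth muscle and pericytes 779 ± 139 CPM, against the 332 and 602 CPM on placebo, with 0 of 8 called in either list, and their part in the *Lama4* values was not tested.

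The remaining 26 genes did not pass. *Itgb1* had 317, 346, 345 and 313 CPM on tamoxifen, within the placebo range of 305 to 453, and *Itga7* 119.9, 116, 108 and 147. *Itga5* had 43.3, 45.2, 46.9 and 50.6 CPM on tamoxifen, all above the placebo mice, with an adjusted p of 0.18 by edgeR. *Dmd* had 139, 133, 134 and 168 CPM, and *Utrn* 37.4, 43.2, 39.6 and 36.1. *Dag1* had 307, 297, 276 and 401 CPM, *Lama2* 40.9, 44.5, 42.5 and 41.6 and *Vcl* 127, 117, 120.3 and 146. Mouse 4 was the highest treated mouse for *Dmd*, *Dag1*, *Itga7* and *Vcl*, and the lowest for *Utrn* and *Sntb2*. Fibroblast markers summed to 1998 ± 349 CPM on placebo and 8415 ± 5132 on tamoxifen, with 3 of 7 higher, and bone markers to 35.7 ± 6.69 and 953 ± 725 CPM with 6 of 8 higher, and their part in these values was not tested.

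**Figure D4:**
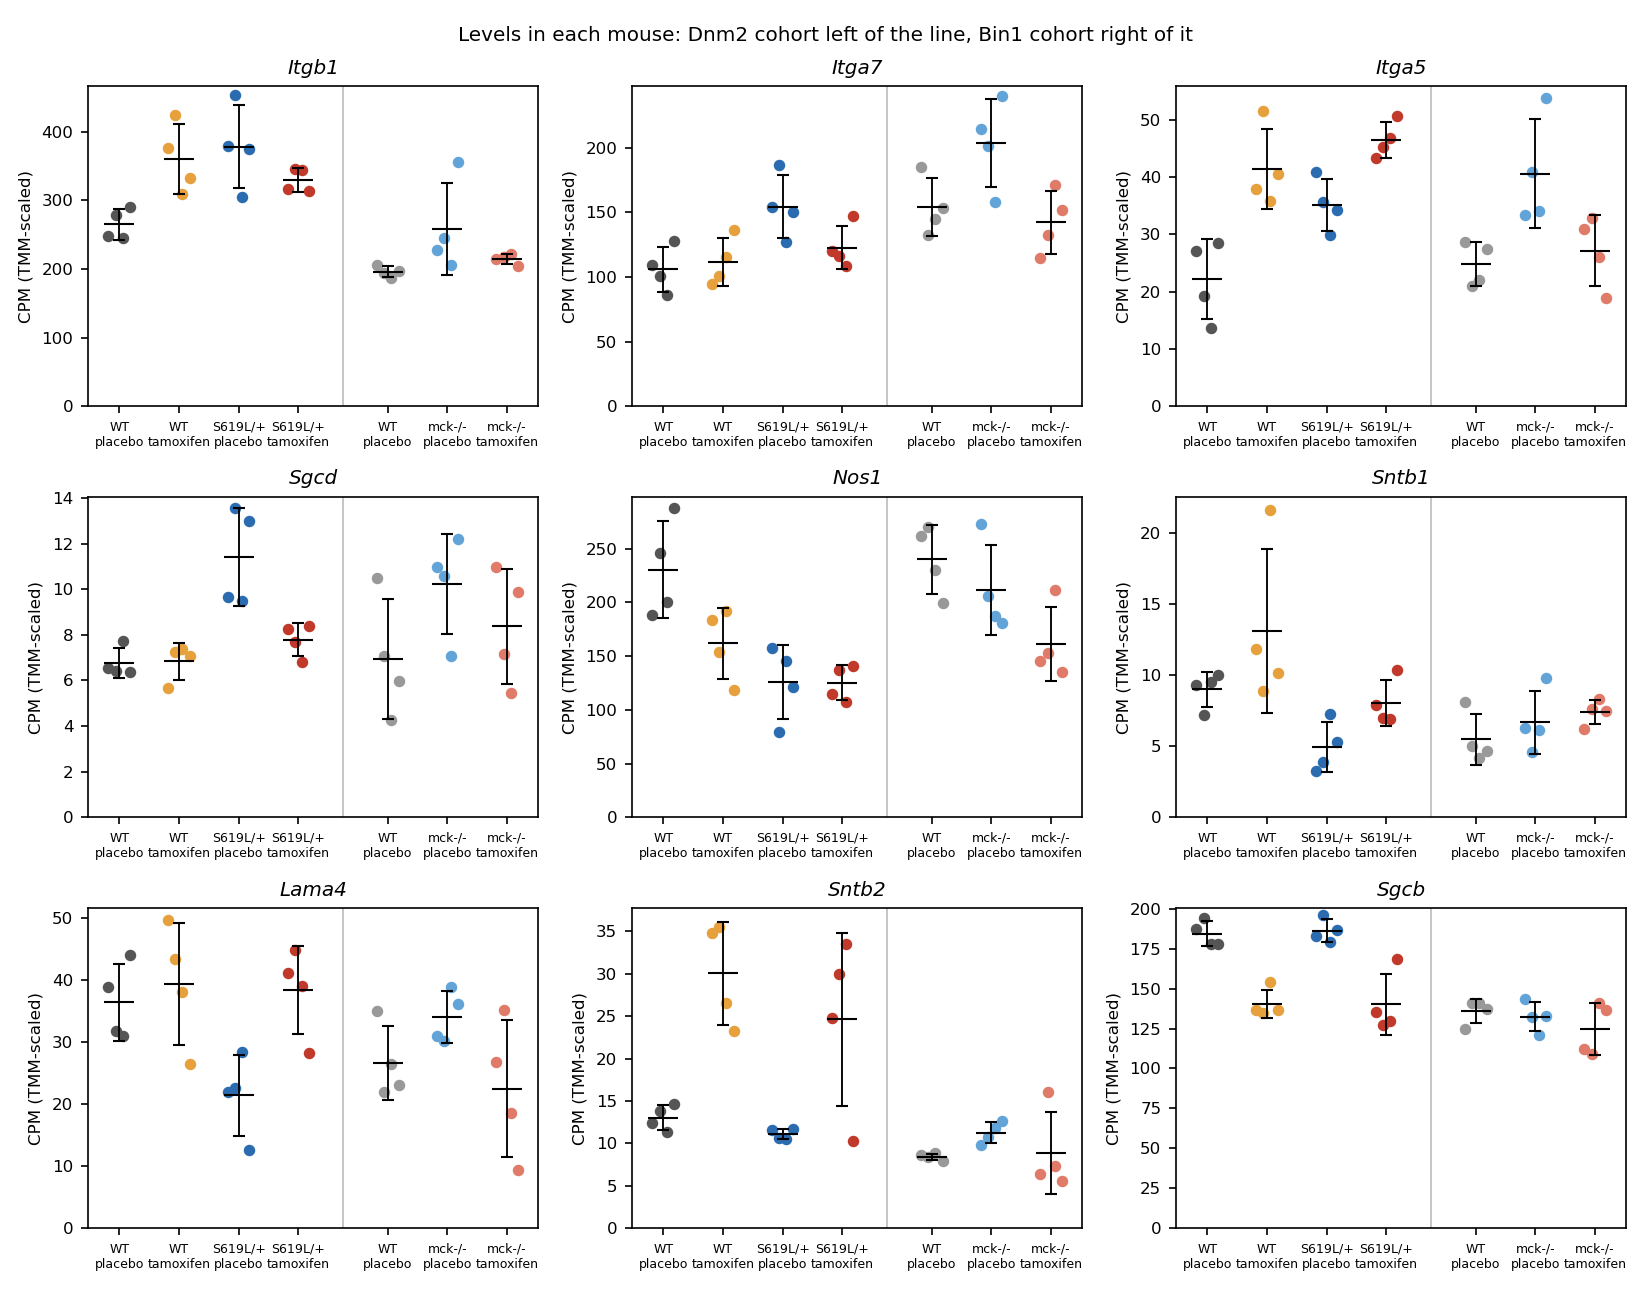
TMM-scaled CPM of 9 of the 30 genes in each mouse (points), with mean ± SD of 4 mice (bars), by group, with the Dnm2 cohort left of the vertical line and the Bin1 cohort right of it. *Itgb1* sits between 245 and 290.1 CPM in WT placebo and between 305 and 453 in Dnm2 S619L/+ placebo mice, and *Sntb2* reaches 23.3 to 35.6 CPM in WT tamoxifen mice.

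Among the other lists, tamoxifen in the mutants gave 0 higher and 1 lower of 5 dystrophin complex genes, neither direction of 16 glycosylation genes, 3 and 1 of 15 basement membrane genes, 5 and 1 of 17 integrins and 4 and 0 of 32 adhesion and costamere genes. *Cav3* went from 103 ± 23.5 to 66.2 ± 10.6 CPM (log2FC -0.63, SE 0.16, adjusted p = 0.0272 by edgeR). *Agrn*, the basement membrane proteoglycan that also clusters acetylcholine receptors, had 0.64 (SE 0.15), *Lamb3* 0.99 (SE 0.26) and *Lama3* 1.30 (SE 0.36). *Itga11* rose from 3.82 ± 1.55 to 50.6 ± 35.5 CPM (log2FC 3.69, SE 0.61, adjusted p = 0.00346 by edgeR), *Itgb5* had 1.02 (SE 0.19) and *Itga4*, a chain of leukocyte integrins, -1.22 (SE 0.22). *Actn1* had 1.58 (SE 0.35), *Lpp* 0.57 (SE 0.14) and *Flna* (filamin A) 0.81 (SE 0.22). None of these genes was called with only the groups compared or in mice with *Xist* above 10 CPM, and with *Xist* as a covariate only *Itga11*, *Itgb5* and *Itga4* were. Without tamoxifen mouse 4 all 10 named here were called, with log2FCs of -0.68 for *Cav3* and 4.05 for *Itga11*. Leaving out tamoxifen mouse 2, or mouse 3, ended the calls of *Cav3*, *Agrn*, *Lamb3*, *Lama3*, *Actn1*, *Lpp* and *Flna*. Those of *Itga11*, *Itgb5* and *Itga4* held in every fit without 1 mouse.

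Whether tamoxifen acted differently in the mutants than in WT mice was tested as an interaction. None of the 30 genes passed, against 0.259% of all genes, with 2 called by DESeq2 (*Lama5* and *Itgb1*). By edgeR 5 of the 30 and 2089 of all 15439 genes were at an unadjusted p under 0.05. Without tamoxifen mouse 4 of the mutants none passed either, with 35 calls over all genes in place of 40, nor without WT placebo mouse 4, with 40. The smallest p was that of *Itgb1*, whose tamoxifen effect in the mutants minus that in WT mice was -0.64 on the log2 scale (SE 0.17, adjusted p = 0.152 by edgeR), followed by *Lama5* at 0.65 (SE 0.18) and *Lama2* at -0.67 (SE 0.20). An effect called in one genotype and not in the other, as for *Itga5* or *Sgce*, was thus not shown to differ.

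Treated mutants were also set against WT placebo mice, a comparison that shares its groups with those above. Here 7 of 30 genes passed, 3 higher and 4 lower, against 28.9% of all genes. *Itga5* had a log2FC of 1.06 (SE 0.18), *Sntb2* 0.91 (SE 0.26) and *Sgce* 0.66 (SE 0.21), and *Nos1* had -0.88 (SE 0.20), *Sgcb* -0.39 (SE 0.09), *Tln2* -0.40 (SE 0.13) and *Fermt2* -0.30 (SE 0.09). *Nos1* had 115, 137, 108 and 141 CPM on tamoxifen, below every WT mouse, whereas *Sgcd* had 0.21 (SE 0.14) and *Lama4* 0.07 (SE 0.23) and did not pass. With plain library sizes, which moved the median of all genes to 0.354 and gave 6562 calls over all genes, 93.2% of them higher, 15 of the 30 passed, all higher, and *Fermt2* changed sign to 0.05 (adjusted p = 0.605 by edgeR). Of the 7, 4 passed with *Xist* as a covariate and 2 in the mice with *Xist* above 10 CPM. Without tamoxifen mouse 4, 10 of the 30 passed, while calls over all genes went from 4461 to 5497, and without tamoxifen mouse 2 or mouse 3 there were 3, with 3175 and 2955 over all genes. Without WT placebo mouse 4, 7 passed, of which 6 were among the 7 named above, and *Sgce* was not called. With only the groups compared *Sntb2* lost its call and *Itgb1* gained one. Markers called in this contrast were 5 of 7 of fibroblasts, 6 of 8 of bone, 4 of 5 of tendon and 4 of 8 of macrophages and leukocytes, all higher, and 4 of 8 of skeletal muscle, 2 of 8 of smooth muscle and pericytes, 2 of 6 of satellite cells, 1 of 8 of endothelium and 1 of 5 of adipocytes, all lower. Of 5 cartilage markers tested, 3 were higher and 1 lower. Their part in these values was not tested. The replicate block ended the call of *Tln2* here and added that of *Itgb1*.

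**Figure D5:**
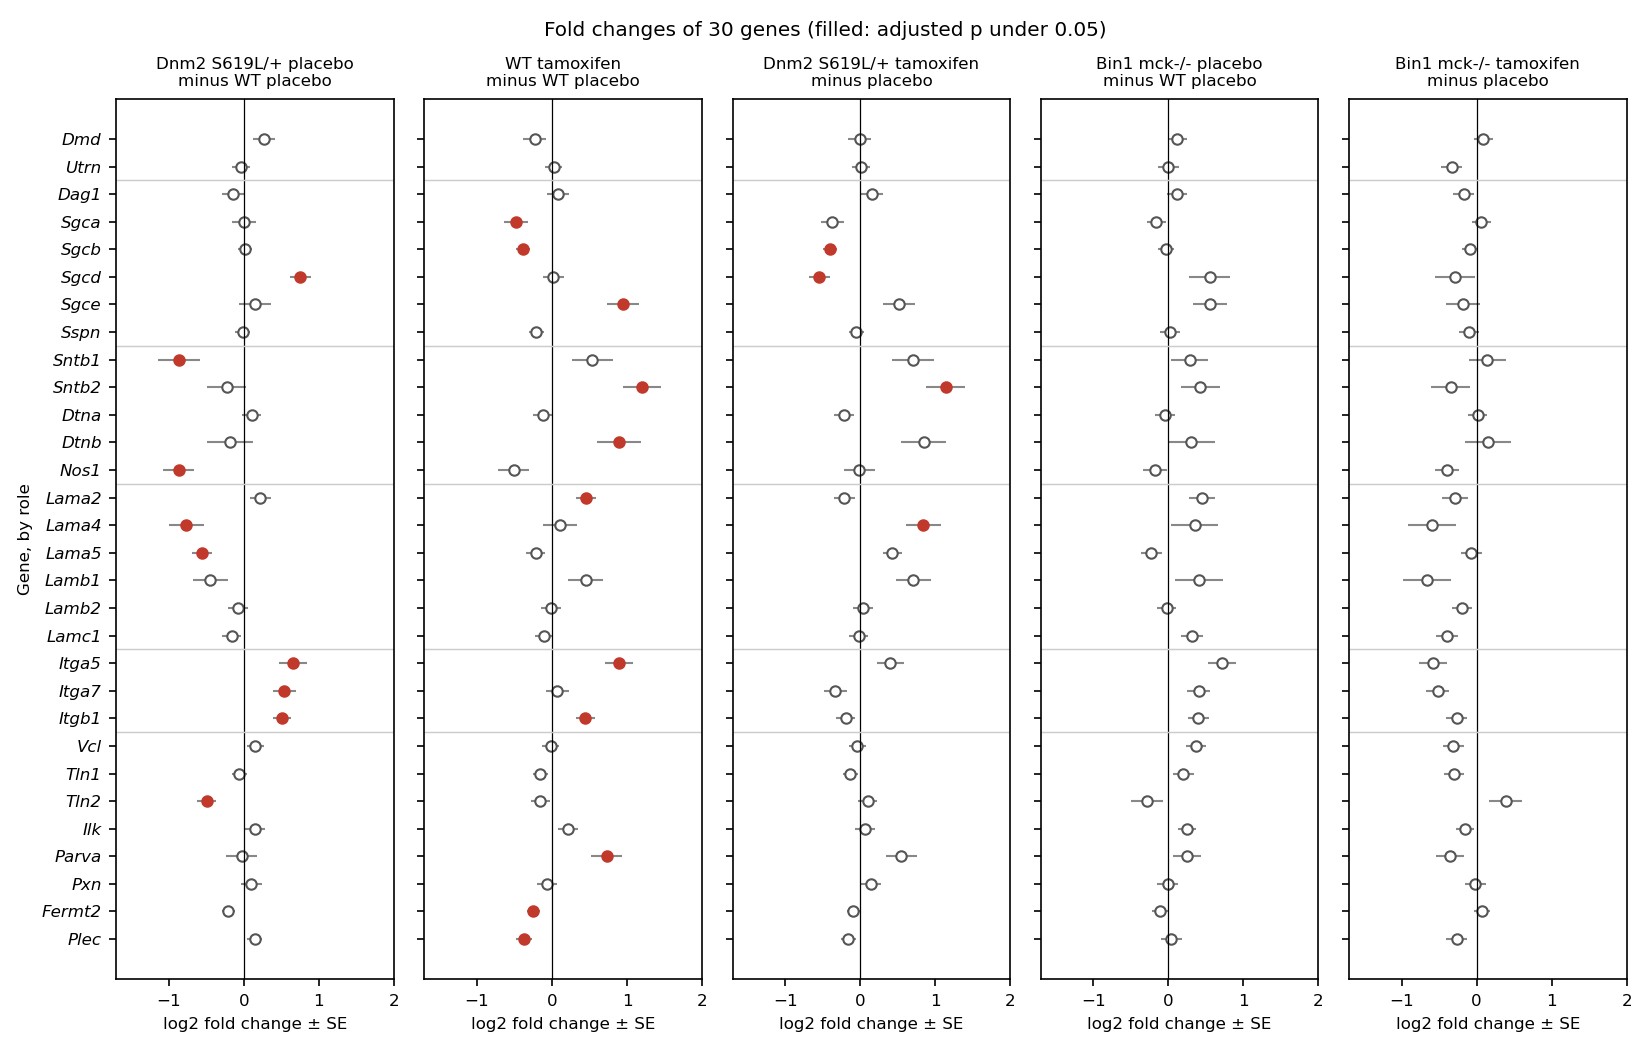
Log2 fold change (log2FC) ± SE of the 30 genes, by role, in 5 comparisons of 4 mice against 4, with filled points for an adjusted p under 0.05. There are 9 filled points for Dnm2 S619L/+ against WT, 11 for tamoxifen in WT, 4 for tamoxifen in Dnm2 S619L/+ and none in either comparison of the Bin1 cohort.

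In the *Bin1* cohort no gene of the 30 passed when Bin1 mck-/- placebo mice were compared with WT. Of all 14841 genes tested 2.61% passed, and DESeq2 called 1 of the 30 (*Itga5*). By edgeR 6 of the 30 were at an unadjusted p under 0.05, as were 2995 of all 14841 genes. Without Bin1 mck-/- mouse 4, 1 of the 30 was at an unadjusted p under 0.05 and calls over all genes went from 388 to 58. The smallest p belonged to *Itga5*, which had 28.7, 21.0, 22.1 and 27.5 CPM in WT and 33.4, 40.9, 34.1 and 53.9 in Bin1 mck-/- mice. Every mutant was above every WT mouse, and the log2FC was 0.71 (SE 0.19, adjusted p = 0.0562 by edgeR). *Itgb1* had 206, 195, 187 and 197 CPM in WT and 227, 246, 205 and 355 in mutants (log2FC 0.40, SE 0.14, adjusted p = 0.132 by edgeR). The lowest mutant was just below the highest WT mouse, and mouse 4, which also had the highest fibroblast (4254 CPM) and tendon (1046 CPM) markers of its group, was far above the others. *Vcl* had 123, 96.8, 91.8 and 90.7 CPM in WT and 132, 132, 105 and 149 in mutants (log2FC 0.37, SE 0.14, adjusted p = 0.146 by edgeR).

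The groups did not overlap for 6 of the 30 genes, 5 higher in the mutants (*Itga5*, *Lama2*, *Sgce*, *Sntb2*, *Lamb1*) and 1 lower (*Fermt2*), and for 16.5% of all genes. The median log2FC was 0.224 over the 30 genes, or 0.121 without Bin1 mck-/- mouse 4, and 0.01 over all genes. *Lama2* had 37.4, 39.4, 30.5 and 32.1 CPM in WT and 39.7, 45.4, 39.8 and 65.3 in Bin1 mck-/- mice. *Itga7* had 185, 132, 145 and 153 CPM in WT and 215, 201, 158 and 239.9 in mutants, which overlap through 1 WT mouse. *Dmd* (81.6, 91.6, 87.9 and 74.5 CPM against 101, 96.0, 78.3 and 89.7), with a log2FC of 0.12 (SE 0.13), overlapped in part, with 2 mutants above the highest WT mouse. *Utrn* (32.2, 29.0, 36.1 and 25.1 against 26.5, 31.9, 29.0 and 34.9) had 0.00 (SE 0.14). *Dag1* had 379, 304, 309 and 269.8 CPM in WT and 373, 348, 313 and 334 in mutants, with the highest value in a WT mouse. Fibroblast markers summed to 908 ± 107 CPM in WT and 2650 ± 1173 in mutants, with none of 7 called and none at 0, and those of macrophages and leukocytes to 36.8 ± 4.97 and 108 ± 38.8 CPM with 5 of 8 higher. Their part in these values was not tested.

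Of the other lists, 1 gene rose in each of the dystrophin complex, basement membrane, integrin and adhesion lists, none fell, and none of 17 glycosylation genes was called. *Cav3* went from 60.7 ± 6.32 to 94.1 ± 18 CPM (log2FC 0.63, SE 0.15, adjusted p = 0.0427 by edgeR), *Col4a5* from 2.07 ± 0.617 to 4.62 ± 0.728 (1.14, SE 0.29) and *Itgav* from 17.6 ± 1.43 to 27.96 ± 7.22 CPM (0.67, SE 0.16). *Krt18* went from 0.227 ± 0.115 to 4.54 ± 4.61 CPM (3.97, SE 1.002). *Krt8* was not among the genes called. It had 0 reads in the 4 WT mice and 139 in the mutants together, a mean of 0.981 CPM. That mean is at least 42.2 times the floor of 3 reads over the WT group. The calls of *Cav3*, *Col4a5*, *Itgav* and *Krt18* each ended in 7 or 8 of 12 fits without 1 of the mice.

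Tamoxifen in Bin1 mck-/- mice likewise gave no call among the 30 genes, against 3.13% of all genes, with 1 called by DESeq2 (*Itga7*). An unadjusted p under 0.05 by edgeR was found for 7 of the 30 and for 3068 of all 14841 genes. *Itga7* had 114, 132, 171 and 151 CPM on tamoxifen, against 215, 201, 158 and 239.9 on placebo, a log2FC of -0.52 (SE 0.15, adjusted p = 0.0756 by edgeR). Only mouse 3 on tamoxifen lay above the lowest placebo mouse. *Itga5* had 31.0, 32.8, 26.0 and 18.9 CPM, all below placebo (log2FC -0.58, SE 0.19, adjusted p = 0.0976 by edgeR). *Lamc1* (ENSMUSG00000026478), the γ chain that most laminins share, had 139, 145, 144 and 176 CPM on placebo and 126, 123, 126 and 83.8 on tamoxifen, again without overlap (log2FC -0.39, SE 0.15, adjusted p = 0.147 by edgeR). Groups did not overlap for 3 of the 30 genes, all lower on tamoxifen (*Itga5*, *Lamc1*, *Plec*), and for 9.80% of all genes. The median was -0.231 over the 30 genes and 0.00 over all genes.

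Core genes overlapped between the groups. *Dmd* had 86.0, 88.3, 123 and 90.4 CPM on tamoxifen and *Utrn* 25.0, 23.8, 29.2 and 18.9, with log2FCs of 0.09 (SE 0.13) and -0.33 (SE 0.14). *Dag1* had 322, 261, 364 and 266 CPM and *Lama2* 34.3, 41.0, 49.7 and 30.9. *Itgb1* had 215, 218, 222 and 205 and *Vcl* 113, 91.7, 120.3 and 93.3 CPM. Mouse 4 was lowest of its group for *Utrn*, *Lama2* and *Itgb1*, and its fibroblast markers, at 272 CPM, were the lowest of all 28 mice. Without mouse 2, the mouse with high fibroblast markers, 3 of the 30 genes passed, while calls over all genes went from 464 to 1253. Without placebo mouse 4 none of the 30 passed, with 193 calls over all genes. Mean fibroblast markers were 2206 ± 2493 CPM on tamoxifen and 2650 ± 1173 on placebo, with none of 7 called. On tamoxifen they were 1700, 1011 and 272 CPM in the mice other than mouse 2. Macrophage and leukocyte markers went from 108 ± 38.8 to 58.5 ± 25.6 CPM, all 8 with a negative log2FC and none called. Those of smooth muscle and pericytes went from 758 ± 100.5 to 624 ± 175 CPM, all 8 negative and 1 called. Skeletal muscle markers went from 120200 ± 15800 to 151700 ± 27020 CPM, with 6 of 8 positive and none called. The part of these markers in the values of the 30 genes was not tested.

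Of the other lists, *Col4a5* was the 1 basement membrane gene to fall, from 4.62 ± 0.728 to 1.31 ± 0.547 CPM (log2FC -1.75, SE 0.30, adjusted p = 0.00683 by edgeR), and *Itga9* the 1 integrin, from 12.9 ± 3.53 to 5.96 ± 1.21 CPM (-1.11, SE 0.22). *Col4a5* was called under all 20 alternatives. The call of *Itga9* was lost with *Xist* as a covariate, with the replicate block and in 2 of 12 fits without 1 mouse. Among 31 adhesion and costamere genes *Pdlim7*, a Z-disc adaptor, rose from 236 ± 35.2 to 397 ± 74.0 CPM (0.75, SE 0.17) and *Lims1* (PINCH1, a partner of integrin-linked kinase) went from 52.5 ± 5.21 to 38.0 ± 4.74 (-0.47, SE 0.12), calls lost under 8 and 13 of 20 alternatives. None of 5 dystrophin complex and 17 glycosylation genes was called. Treated Bin1 mck-/- mice against WT gave no call among the 30 (0.849% of all genes). By edgeR 2 of the 30 and 2205 of all 14841 genes were at an unadjusted p under 0.05. Without tamoxifen mouse 2 there was again no call among the 30, with 132 over all genes in place of 126. DESeq2 called 1, *Nos1*, whose log2FC was -0.57 (SE 0.16, adjusted p = 0.116 by edgeR).

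The models were set against each other in a fit of all 28 mice, where model and library protocol cannot be told apart. For the difference of disease effects, none of the 30 genes passed, against 0.312% of 16036 genes, with 0 called by DESeq2. By edgeR 5 of the 30 and 2166 of the 16036 genes were at an unadjusted p under 0.05. Without Bin1 mck-/- placebo mouse 4 or WT placebo mouse 4 of the *Dnm2* cohort none passed either, with 74 and 42 calls over all genes in place of 50. The smallest p were those of *Sntb1* (log2 difference, Dnm2 S619L/+ minus Bin1 mck-/-, -1.15, SE 0.39) and *Lama4* (-1.12, SE 0.39). The integrins had differences of 0.11 (SE 0.19) for *Itgb1*, 0.13 (SE 0.22) for *Itga7* and -0.06 (SE 0.27) for *Itga5*. Calls in the *Dnm2* cohort and none in the *Bin1* cohort were therefore not shown to differ.

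For the difference of tamoxifen effects, 1 of 30 genes passed, against 1.71% of all genes. *Sntb2* had a log2 difference of 1.53 (SE 0.39, adjusted p = 0.0457 by edgeR), from effects of 1.14 in Dnm2 S619L/+ and -0.35 (SE 0.26) in Bin1 mck-/- mice, where it had 9.80, 10.8, 11.9 and 12.7 CPM on placebo and 6.45, 16.02, 7.37 and 5.56 on tamoxifen. Leaving out 1 mouse ended this call in 25 of 28 fits. *Itga5* followed with 1.02 (SE 0.27, adjusted p = 0.0506 by edgeR), *Lama4* with 1.48 (SE 0.40) and *Lamb1* with 1.41 (SE 0.40), and DESeq2 called 5 of the 30. Without Dnm2 S619L/+ tamoxifen mouse 4, or without Bin1 mck-/- tamoxifen mouse 2, 6 of the 30 passed, while calls over all genes went from 274 to 1826 and to 2195. Without Bin1 mck-/- placebo mouse 4 none passed, with 25 calls over all genes. None of 7 fibroblast markers was called for this difference, all 7 with a positive value and a median of 2.07 on the log2 scale, and their part was not tested.

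Beside *Dmd*, *Utrn*, *Dag1*, *Vcl*, *Lamc1*, *Lamb1* and *Tln1*, the genes called in none of the 10 comparisons were *Sspn* (sarcospan), with group means of 98.9 to 131 CPM over the 7 groups, *Dtna* (α-dystrobrevin) with 122 to 153, *Lamb2* with 217 to 283, *Ilk* with 48.1 to 57.4 and *Pxn* (paxillin) with 113 to 157 CPM. This depends on the settings for some of them. With plain library sizes *Dmd*, *Sspn*, *Dtna*, *Vcl*, *Ilk* and *Pxn* passed for Dnm2 S619L/+ against WT, all of these but *Dtna* for treated mutants against WT, and *Lamb1* and *Ilk* for tamoxifen in WT mice, all higher. *Lamb1* also passed with DESeq2, with thinning and with the replicate block for tamoxifen in Dnm2 S619L/+ mice. It passed as well with only the groups compared for Bin1 mck-/- against WT, and with DESeq2 for the difference of tamoxifen effects.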

How the data were processed

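The deposited values were raw counts of reads per gene in 28 mice, in a table per cohort. Per the submitters' processing notes, the authors used bcl2fastq 2.20.0.422, cutadapt 1.10, Bowtie 1.2.2, STAR 2.5.3 and HTSeq 0.6.1p1 with build mm39, on stranded libraries. Lines of the *Bin1* cohort's table that name no gene held 22.0 to 30.8% of its counts and were left out.

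The 30 genes, the lists of pathway genes and the lists of cell type markers were chosen with earlier results of these data known. Each cohort was fitted alone (R 4.3.3, edgeR 4.0.16), with TMM factors, a minimum count of 10 by group, a prior count of 2, robust quasi-likelihood tests and Benjamini-Hochberg adjustment over all genes at 0.05. Differences between the models came from a fit of all 28 mice. Levels per kb divide CPM by the exon length of a gene. Per-mouse values are given for 1 core gene of each role and for the called genes of smallest p (5 a comparison, or the 3 of smallest p where under 3 were called), and the 3 pathway genes of smallest p among those called are named in each list, except a few genes that are not reported here. DESeq2 1.42.0, another normalization, plain library sizes, no filter, thinning, *Xist* as a covariate, a replicate block and leaving out mice were alternatives. Plain library sizes and the fit of mice with *Xist* above 10 CPM were added after the data were seen. The fits were tested on simulated data with the same dispersion for every gene. In each cohort's fit 78 of 100 genes changed by a log2FC of 1 in size were recovered, and 100 of 100 at 2. False calls were 12 in the *Dnm2* cohort's fit and 10 in that of the *Bin1* cohort. Smaller changes were not simulated, so their recovery is not known.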

Additional observations from a re-analysis of the deposited data

Results flagged for a closer look

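In 15 of 210 groups of 4 mice tested, 1 mouse lay farther from the rest than Dixon's critical value allows, where chance gives about 1 in 20. Only levels of the 30 genes were looked at.

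Among genes of the dystrophin complex, *Dmd* was at 168.1 CPM in Dnm2 S619L/+ tamoxifen mouse 4 (133.2 to 138.5 in the others) and at 122.8 CPM in Bin1 mck-/- tamoxifen mouse 3 (86.03 to 90.39). *Sgcb* was at 153.8 CPM in WT tamoxifen mouse 3 (134.6 to 136.7), *Sgcd* at 7.748 CPM in WT placebo mouse 3 of the *Dnm2* cohort (6.366 to 6.569) and *Sgce* at 13.64 CPM in Bin1 mck-/- placebo mouse 4 (7.026 to 7.99).

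Among the laminins, *Lama2* was at 50.94 CPM in WT tamoxifen mouse 3 (59.38 to 61.07) and *Lamb2* at 338.3 CPM in Bin1 mck-/- placebo mouse 1 (254.2 to 262). *Lamc1* was at 175.5 CPM in Bin1 mck-/- placebo mouse 4 (138.8 to 145) and at 83.77 CPM in Bin1 mck-/- tamoxifen mouse 4 (123.4 to 126.4).

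Among the adaptors, *Tln1* was at 189.5 CPM in WT placebo mouse 3 of the *Dnm2* cohort (219.8 to 223) and at 167.4 CPM in Dnm2 S619L/+ tamoxifen mouse 4 (193.4 to 195.2). *Fermt2* was at 214.4 CPM in Dnm2 S619L/+ placebo mouse 2 (235.1 to 236.6) and at 255.3 CPM in Bin1 mck-/- tamoxifen mouse 3 (191.1 to 201.7). *Plec* was at 1518 CPM in Bin1 mck-/- placebo mouse 1 (1095 to 1117) and at 884.9 CPM in Bin1 mck-/- tamoxifen mouse 4 (1035 to 1057).

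For *Sntb2* the tamoxifen effects in the models had a log2 difference of 1.525 (SE 0.39), which passed the edgeR test in the joint fit. It did not pass in 25 of 28 fits without 1 mouse, with no filter on low counts or with plain library sizes. Model and library protocol cannot be told apart in this fit, and *Xist* was not entered as a covariate in it.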

How the results depend on the processing

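The number of the 30 genes that passed moved by more than 1.5 times under these settings, and the cause was not tested. With plain library sizes 14 passed in place of 9 for Dnm2 S619L/+ against WT, 15 in place of 7 for treated mutants against WT, 1 in place of 0 for tamoxifen in Bin1 mck-/- and 0 in place of 1 for the difference of tamoxifen effects. *Fermt2* reversed there, to 0.0307 for tamoxifen in WT and 0.05171 for treated mutants against WT. In mice with *Xist* above 10 CPM, which leaves fewer samples, 4, 4, 0 and 2 passed for Dnm2 S619L/+, tamoxifen in WT, tamoxifen in Dnm2 S619L/+ and treated mutants. With *Xist* as a covariate 0 passed for tamoxifen in Dnm2 S619L/+ and 4 for treated mutants, and with only the groups compared 0 for tamoxifen in Dnm2 S619L/+ and 2 for Bin1 mck-/- against WT. DESeq2 called 7 for tamoxifen in Dnm2 S619L/+, 2 for the interaction, 1 in each of the 3 *Bin1* cohort comparisons and 5 for the difference of tamoxifen effects. With no filter 2 passed for tamoxifen in Dnm2 S619L/+, 1 for tamoxifen in Bin1 mck-/-, 1 for treated Bin1 mck-/- against WT and 0 for the difference of tamoxifen effects.

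Leaving out 1 mouse gave 6 to 9 calls for Dnm2 S619L/+ against WT, 6 to 12 for tamoxifen in WT, 0 to 8 for tamoxifen in Dnm2 S619L/+, 0 to 2 for the interaction, 3 to 10 for treated mutants (3 without tamoxifen mouse 2 or 3), 0 to 1 for Bin1 mck-/- against WT, 0 to 3 for its tamoxifen effect, 0 to 1 for its treated mice against WT and 0 to 6 for the difference of tamoxifen effects (6 without Dnm2 S619L/+ tamoxifen mouse 4 or Bin1 mck-/- tamoxifen mouse 2). Over all genes these fits gave 2034 to 3953, 2769 to 4825, 368 to 2562, 1 to 293, 2955 to 5497, 18 to 759, 160 to 1253, 42 to 266 and 6 to 2195 calls in the same order, and 13 to 154 for the difference of disease effects, so the shares over all genes move with single mice as well. Of 2005 repeats over 83 gene results, 1652 kept direction and side of the threshold, 341 lost the call, 10 gained it and 2 reversed.

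Over all genes, plain library sizes moved the higher share of calls from 55.2 to 91.1% for Dnm2 S619L/+, from 57.1 to 92.0% for tamoxifen in WT, from 54.6 to 93.2% for treated mutants, from 63.1 to 74.4% for tamoxifen in the mutants and from 48.5 to 21.0% for tamoxifen in Bin1 mck-/- mice, where the median of all genes moved to -0.162. All-gene calls for tamoxifen in Dnm2 S619L/+ went from 1277 to 30 with only the groups compared and 497 with *Xist* as a covariate. Those for Bin1 mck-/- against WT went from 388 to 1458 with only the groups compared, 139 with *Xist* as a covariate and 1149 with DESeq2. DESeq2 also moved them from 40 to 322 for the interaction, from 464 to 1166 for tamoxifen in Bin1 mck-/-, from 126 to 521 for treated Bin1 mck-/- against WT, and from 50 to 228 and from 274 to 1349 for the differences of disease and of tamoxifen effects. In mice with *Xist* above 10 CPM they went from 3382 to 1124 for Dnm2 S619L/+, from 4273 to 2231 for tamoxifen in WT and from 4461 to 1099 for treated mutants. For tamoxifen in Dnm2 S619L/+ they went from 1277 to 79 in these mice, and the higher share of calls from 63.1 to 30.4%.

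The labels do not say whether mouse numbers pair the samples. In 28 pairs with the same number, deviations from the group means correlated at -0.325 to 0.335, over 0.1 in 10. In 10 of the 28 the best partner had the same number, out of 4 possible partners, which does not settle the question. The replicate block gave 9, 9, 4, 0 and 7 calls in the *Dnm2* cohort and 0 for tamoxifen in Bin1 mck-/- mice. It ended the calls of *Sgca* and *Fermt2* for tamoxifen in WT, exchanged *Sgcd* for *Lamb1* for tamoxifen in Dnm2 S619L/+ and *Tln2* for *Itgb1* for treated mutants, and changed no other call among the 30. The lowest count of the 30 genes was 20 reads, and which of them depth limits most was not tested. Thinning to the smallest library ended the calls of *Sntb1* for Dnm2 S619L/+ against WT and of *Dtnb* and *Fermt2* for tamoxifen in WT. It added *Lama5* and *Lamb1* for tamoxifen in Dnm2 S619L/+.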

Other observations

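Some related chains are given as shares of their summed level per kb (mean ± SD, n = 4). A share moves with any of its chains, and whether chains replace each other was not tested. *Itga5* made up 16.2 ± 2.59% of *Itga5* plus *Itga7* in WT placebo mice of the *Dnm2* cohort, 26.2 ± 4.92% in WT tamoxifen, 17.8 ± 1.93% in Dnm2 S619L/+ placebo and 26.5 ± 1.96% in Dnm2 S619L/+ tamoxifen mice. In the *Bin1* cohort it was 13.2 ± 0.871% in WT, 15.9 ± 2.09% in Bin1 mck-/- placebo and 15.6 ± 4.8% in Bin1 mck-/- tamoxifen mice. *Lama2* made up 28.5 ± 4.5% of the 3 laminin α chains in WT placebo mice of the *Dnm2* cohort and 42.2 ± 8.12% in Dnm2 S619L/+ placebo mice, with ranges of 22.8 to 33.3% and 31.4 to 51% that overlap. Between these groups *Lama4* and *Lama5* were lower, and *Lama2* itself was not called. It was 35.6 ± 4.3% in WT tamoxifen and 28.6 ± 2% in Dnm2 S619L/+ tamoxifen mice, and in the *Bin1* cohort 25.8 ± 3.99% in WT, 30.8 ± 5.14% in Bin1 mck-/- placebo and 32.4 ± 6.04% in Bin1 mck-/- tamoxifen mice.

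Markers of other cells were also summed. Those of Schwann cells and nerve were 111 ± 21.2 CPM in WT placebo, 63.7 ± 29.2 in WT tamoxifen, 116 ± 54.3 in Dnm2 S619L/+ placebo and 74.1 ± 23.2 in Dnm2 S619L/+ tamoxifen mice. In Bin1 mck-/- mice they were 74.9 ± 22.1 CPM on placebo and 31.7 ± 7.66 on tamoxifen, with 2 of 7 lower. Adipocyte markers were 343 ± 121, 234 ± 29.2, 229 ± 115 and 214 ± 25.0 CPM in the 4 groups of the *Dnm2* cohort in the same order, and satellite cell markers 43.4 ± 6.68, 81.3 ± 6.55, 56.9 ± 16.6 and 53.7 ± 8.52 CPM. Of the 6 satellite cell markers, 2 were lower in Dnm2 S619L/+ placebo mice than in WT (*Pax7*, log2FC -2.65, SE 0.40, and *Calcr*, -3.40, SE 0.69), and 1 was higher on tamoxifen in WT and 1 in Dnm2 S619L/+ mice. Between Dnm2 S619L/+ and WT mice on placebo, 3 of the 6 had a positive log2FC, none of them called. In WT, Bin1 mck-/- placebo and Bin1 mck-/- tamoxifen mice, adipocyte markers summed to 253 ± 12.8, 260.5 ± 71.9 and 267 ± 34.5 CPM, nearly all of it *Fabp4* (252, 248 and 265 CPM). Of the 4 tested, 2 were higher in Bin1 mck-/- placebo mice than in WT (*Plin1*, log2FC 3.34, SE 0.74, and *Cidec*, 3.54, SE 0.64) and 1 was lower on tamoxifen (*Plin1*, -3.32, SE 0.75). Satellite cell markers summed to 51.1 ± 1.87, 41.3 ± 4.497 and 53.4 ± 5.92 CPM, with 2 of 6 lower in Bin1 mck-/- placebo mice than in WT (*Pax7*, -1.42, SE 0.33, and *Calcr*, at 0.527 and 0.0241 CPM) and 1 higher on tamoxifen (*Calcr*, at 0.705 CPM). These 4 genes were named after their values were seen.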
